A study of Mus musculus with 24 samples.

Results

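The 5 mature microRNAs (miRNAs) described here are mmu-miR-99a, mmu-miR-99b, mmu-miR-100, mmu-miR-125a-5p and mmu-miR-125b-5p, written below without the mouse prefix. They are the guide strands of the miR-99/100 and miR-125 families. They were chosen by assay name, with star strands left out, and are 5 of the 584 miRNA assays on the arrays. The study profiled muscle stem cells of 8-week-old male C57BL/6 mice by real-time PCR. Quiescent stem cells formed the 0 h group, and activated stem cells were taken 36, 60 and 72 h after injury. No group carried a genetic change, and the labels name no sort, no injury method and no number of animals. Each group had 3 arrays of each of the card types A and B, and all 5 members are on card A. The design text calls the replicates technical, so every SD, SE and p-value here covers the spread between technical replicates and not the spread between animals.

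miR-125 is the vertebrate relative of lin-4, the heterochronic miRNA first found in worms, and miR-99/100 is one of the oldest miRNA families of animals. In mammals their genes lie in paralogous clusters in which a miR-99/100 gene and a miR-125 gene flank a let-7 gene and can be made from a shared primary transcript. A miRNA pairs with its target mRNAs mainly through its seed, bases 2 to 8, so members of a family with the same seed are expected to share many targets wherever their genes lie.

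The mature sequences show how the 5 members divide by seed, and they are printed from RefSeq (GRCm38.p6) with the seed in capitals. All 5 members were matched.
miR-99a: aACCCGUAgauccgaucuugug
miR-100: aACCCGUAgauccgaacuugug
miR-99b: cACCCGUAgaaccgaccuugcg
miR-125b-5p: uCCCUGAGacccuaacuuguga
miR-125a-5p: uCCCUGAGacccuuuaaccuguga
Counting from 1 at the 5′ end, miR-99a and miR-100 differ by 1 base, U16A. miR-99a and miR-99b differ by 4, A1C, U11A, U16C and U21C, none of them in the seed. miR-125a-5p has 24 bases and miR-125b-5p has 22, and their first 13 bases are identical.

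By position, the same 5 miRNAs divide another way, into clusters on 3 chromosomes (GRCm38.p6, all on the plus strand). Mir100 (mature miR-100 at chr9:41531437-41531458) and Mir125b-1 (chr9:41581940-41581961) lie 50.5 kb apart, end to end, within the span of the non-coding gene Mir100hg. Mir99a (chr16:77598940-77598961) and Mir125b-2 (chr16:77646279-77646300) span 47.4 kb, with Mirlet7c-1 between them. Mir99b (chr17:17830194-17830215), Mirlet7e and Mir125a (chr17:17830817-17830840) fit in 647 bases within the span of Spaca6, a gene of sperm and egg fusion. Exons and introns of these host genes were not analysed here. Mir125b-1 and Mir125b-2 give the same mature miRNA, so the miR-125b-5p assay reads the chromosome 9 and chromosome 16 clusters together. Whether the miR-99a and miR-100 assays, 1 base apart in target, amplify each other's product was not tested.

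Levels are given on a log2 scale as the mean threshold cycle (Ct, the PCR cycle at which signal crosses a threshold) of U6 small nuclear RNA on an array minus the Ct of the assay, so a higher value is more RNA relative to U6. An assay counted as detected at a Ct below 35, which 181 to 212 assays reached on a card A array and 89 to 120 on a card B array. PCR arrays give no read depth. The 5 members were detected on 12 of 12 card A arrays at Ct 18.96 to 25.36, far from that limit, and their SD within a group was 0.01 to 0.227. The other control RNAs did not keep a fixed ratio to U6: on card A against 0 h, snoRNA202 was at -0.88, -2.40 and -3.05 at 36, 60 and 72 h and snoRNA135 at -0.22, -0.34 and -0.87. The values below are therefore given with each normalizer where it matters, and the central comparison, between members on the same array, needs none. In RNA from a cell population, fewer cells that hold a miRNA and less of it per cell cannot be told apart.

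Relative to U6, miR-99a, miR-100 and miR-125b-5p of the chromosome 9 and 16 clusters were within 0.31 of their 0 h level at 36 h. They fell steeply after it. By 72 h they were 10.5-fold to 12.6-fold below quiescent cells relative to U6. On the same scale, miR-99b and miR-125a-5p of the chromosome 17 cluster went up first and were back near their 0 h level at 72 h. The sizes and some signs of these changes depended on the normalizer, as given below. The seed relatives that parted were those split between chromosome 17 and the other clusters. miR-99a and miR-100, on chromosomes 16 and 9, had similar courses.

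**Figure D1:**
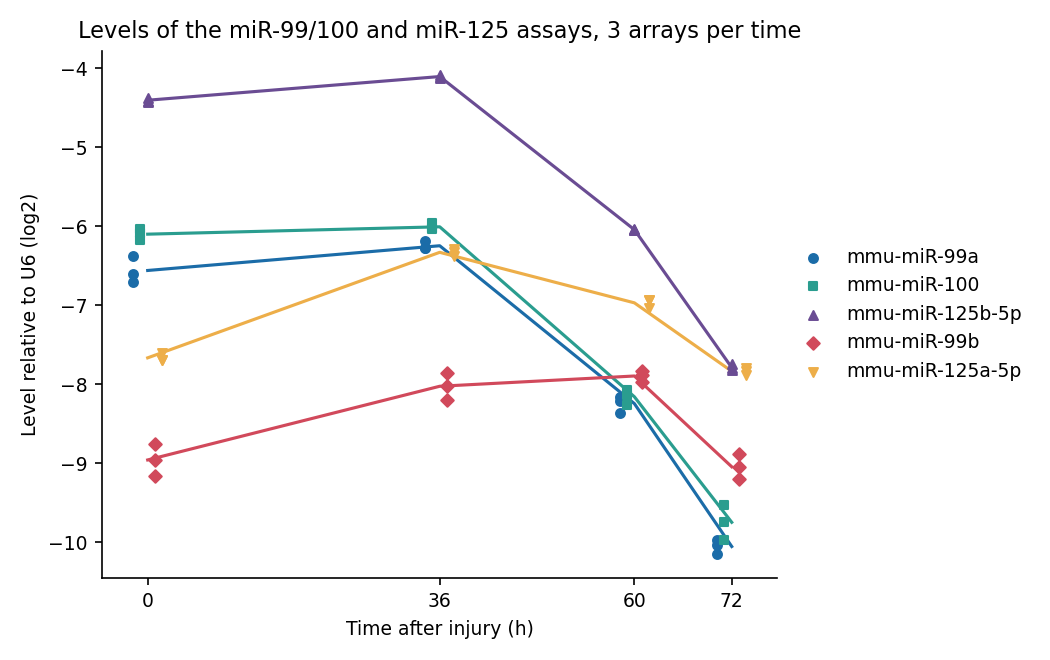
Level relative to U6 (log2, vertical axis) against time after injury in hours (horizontal axis) for the 5 assays. Points are single arrays, 3 per time, and lines join the group means. miR-99a, miR-100 and miR-125b-5p run in parallel and end between -7.79 and -10.06, and miR-99b and miR-125a-5p end near where they began.

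miR-125b-5p, read from the chromosome 9 and 16 clusters together, had the tightest replicates of the 5. Its levels were -4.42, -4.41 and -4.38 at 0 h, -4.11, -4.08 and -4.12 at 36 h, -6.03, -6.05 and -6.05 at 60 h and -7.82, -7.75 and -7.80 at 72 h. No groups overlapped, and their order was 36 h, 0 h, 60 h, 72 h. Against 0 h the log2 change was 0.29 ± 0.04 (SE, n = 3) at 36 h, below the 2-fold minimum for a call (adjusted p = 0.000124). It fell by 1.64 ± 0.04 at 60 h (3.12-fold, adjusted p = 1.26e-10) and fell by 3.39 ± 0.04 at 72 h (10.5-fold, adjusted p = 8.71e-13). The fall went on in both later steps, 3.83-fold from 36 to 60 h and 3.36-fold from 60 to 72 h.

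miR-99a, the neighbour of Mir125b-2 on chromosome 16, followed the same course. Its levels were -6.70, -6.38 and -6.60 at 0 h, -6.27, -6.19 and -6.28 at 36 h, -8.16, -8.37 and -8.21 at 60 h and -9.98, -10.15 and -10.04 at 72 h. Again no groups overlapped, though 0 and 36 h were close. The 36 h change of 0.31 ± 0.09 was under 2-fold (adjusted p = 0.0103). The level was 3.23-fold below 0 h at 60 h (log2 -1.69 ± 0.09, adjusted p = 3.81e-08) and 11.3-fold below it at 72 h (-3.50 ± 0.09, adjusted p = 9.39e-11).

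miR-100, the neighbour of Mir125b-1 on chromosome 9, had levels of -6.03, -6.09 and -6.18 at 0 h, -6.04, -5.96 and -6.02 at 36 h, -8.14, -8.26 and -8.08 at 60 h and -9.74, -9.53 and -9.98 at 72 h. The 0 and 36 h arrays overlapped, with a change of 0.09 ± 0.11 (adjusted p = 0.456), and both later groups lay below them. The level was 4.18-fold below 0 h at 60 h (log2 -2.06 ± 0.11, adjusted p = 2.31e-08) and 12.6-fold below it at 72 h (-3.65 ± 0.11, adjusted p = 1.89e-10).

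miR-125a-5p of the chromosome 17 cluster shares its seed with miR-125b-5p. Its levels were -7.70, -7.60 and -7.70 at 0 h, -6.32, -6.29 and -6.38 at 36 h, -7.03, -6.94 and -6.94 at 60 h and -7.89, -7.83 and -7.79 at 72 h. The groups did not overlap and stood in the order 36 h, 60 h, 0 h, 72 h. It rose 2.53-fold at 36 h (log2 1.34 ± 0.06, adjusted p = 6.33e-09). The log2 change against 0 h was 0.70 ± 0.06 at 60 h (adjusted p = 8.64e-07) and -0.17 ± 0.06 at 72 h (adjusted p = 0.0163), both under 2-fold. From its 36 h level it fell 2.85-fold by 72 h relative to U6 (log2 -1.51, adjusted p = 1.48e-09), a call made with no other normalizer (snoRNA135 gave -0.86, snoRNA202 0.66 and the global mean 0.81).

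miR-99b, the seed relative of miR-99a and miR-100 on chromosome 17, had changes near the 2-fold minimum. Its levels were -8.76, -8.96 and -9.16 at 0 h, -8.02, -8.20 and -7.86 at 36 h, -7.97, -7.89 and -7.83 at 60 h and -8.89, -9.20 and -9.05 at 72 h. The 36 and 60 h arrays overlapped each other above the 0 and 72 h arrays, which overlapped as well. Against 0 h the log2 change was 0.93 ± 0.12 at 36 h (adjusted p = 6.21e-05), just under 2-fold. It was a 2.09-fold rise at 60 h (1.06 ± 0.12, adjusted p = 1.9e-05) and -0.09 ± 0.12 at 72 h (adjusted p = 0.525). These values sit at the fold threshold. Without 0 h replicate 1 or 36 h replicate 2 the 36 h change became a call (1.03 and 1.02), and without 0 h replicate 3 the 60 h change was no longer one (0.96). The 2.22-fold fall from 60 to 72 h (adjusted p = 1.75e-05) kept its call in each such refit. The 2.03-fold fall from 36 to 72 h (adjusted p = 2.39e-05) lost it without 36 h replicate 3 or 72 h replicate 2 (log2 -0.94 each). With other normalizers the change from 60 to 72 h was -0.62 to -0.28, not called. From 36 to 72 h it was -0.37 with snoRNA135, and 1.15 and 1.30, called higher, with snoRNA202 and the global mean.

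Changes of this size were common on these arrays. At 36 h against 0 h, 1 of the 5 members was called higher, miR-125a-5p, where 44.1% of the 272 tested assays were, and 0 were called lower, where 12.1% were. At 60 h, 3 of 5 were lower and 1 higher, against 36.4% and 28.0% of 250 assays. At 72 h, 3 of 5 were lower and 0 higher, against 45.9% and 20.9% of 244 assays. Between later times the count of lower members was 3 of 5 from 36 to 60 h (49.5% of all assays), 4 of 5 from 60 to 72 h (35.8%) and 5 of 5 from 36 to 72 h (69.3%), with 0 higher in each (5.38%, 0.755% and 4.07% of all assays). In the limma fits behind these counts, no member had a change below 0 at 36 h against 0 h, and none had one above 0 at 72 h against any earlier time, at any p. From 36 to 60 h the single change above 0 was that of miR-99b (0.13, adjusted p = 0.338). The median change of the members against 0 h was 0.31, -1.64 and -3.39 at 36, 60 and 72 h. That of all tested assays was 0.82, -0.37 and -0.77. On card A alone, which holds the members, the medians were 0.91, -0.49 and -1.37. There, 90 of 166 assays were called lower at 72 h against 0 h, and 141 of 181 from 36 to 72 h.

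Because the whole card shifted relative to U6, the members were also placed among the other assays of card A, which no normalizer alters. At 72 h against 0 h, of 166 tested card A assays, 28 were lower than miR-99a, 26 lower than miR-100 and 30 lower than miR-125b-5p. miR-99b and miR-125a-5p had 50 and 54 assays above them. Relative to the card A median of -1.37, the changes were -2.13, -2.28 and -2.02 for miR-99a, miR-100 and miR-125b-5p and 1.28 and 1.20 for miR-99b and miR-125a-5p. The members of the chromosome 9 and 16 clusters therefore lay well below the middle of the card, and miR-99b and miR-125a-5p above it. let-7e, which lies between Mir99b and Mir125a, was at the card median (-0.02 from it). From 60 to 72 h only 9 of 178 assays were lower than miR-99a, 11 lower than miR-125b-5p and 21 lower than miR-100, while miR-125a-5p lay at the median.

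**Figure D2:**
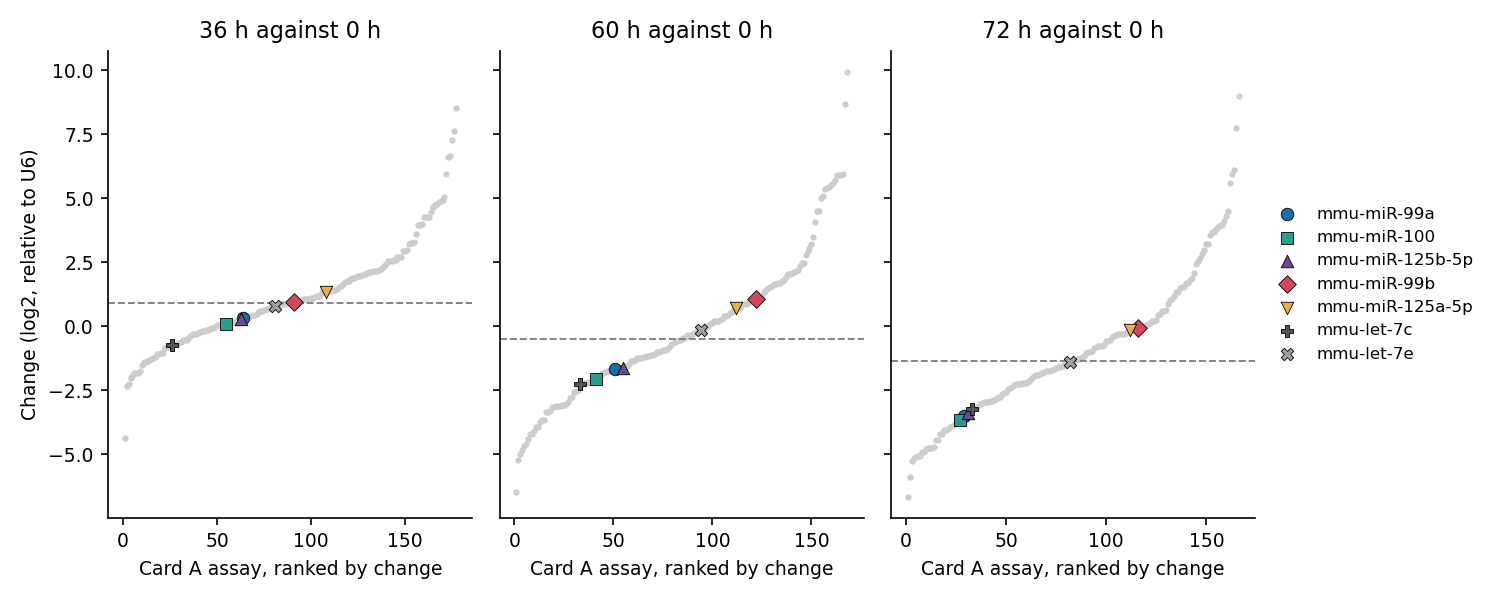
Log2 change against 0 h relative to U6 (vertical axis) of every tested card A assay, ordered from lowest to highest (horizontal axis), at 36, 60 and 72 h. Grey points are other assays, coloured symbols the members, let-7c and let-7e, and the dashed line the card A median, which is -1.37 at 72 h. At 60 and 72 h miR-99a, miR-100 and miR-125b-5p sit to the left of the middle and miR-99b and miR-125a-5p to the right.

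The choice of control RNA set the direction of several single changes. For miR-99a at 72 h against 0 h the log2 change was -3.50 with U6, -2.64 with snoRNA135, -2.47 with the mean of all assays detected on 12 arrays (the global mean) and -0.45, no longer a call, with snoRNA202. For miR-100 the values were -3.65, -2.79, -2.62 and -0.60, and for miR-125b-5p -3.39, -2.52, -2.36 and -0.34. At 60 h snoRNA202 turned these 3 to 0.71, 0.34 and 0.76. At 36 h they were at 0.31, 0.09 and 0.29 with U6 and 0.53, 0.31 and 0.51 with snoRNA135. With snoRNA202 they were at 1.19, 0.97 and 1.17 at 36 h, with miR-99a and miR-125b-5p called higher. With the global mean they were at -0.98, -1.20 and -1.0 at 36 h, with miR-100 called lower. For miR-99b at 72 h the values were -0.09 with U6, 0.78 with snoRNA135, 0.94 with the global mean and 2.96, a call, with snoRNA202, and for miR-125a-5p -0.17, 0.70, 0.86 and 2.88. Calls made with all 4 normalizers were the rise of miR-99b at 60 h against 0 h (1.06 to 3.47) and the falls of miR-99a, miR-100 and miR-125b-5p from 36 to 72 h. These falls were -3.81, -3.74 and -3.68 with U6 and -1.49, -1.42 and -1.36 with the global mean. The 36 h rise of miR-125a-5p was called with U6, snoRNA135 and snoRNA202 (1.34, 1.56 and 2.22) and was 0.05 with the global mean.

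**Figure D3:**
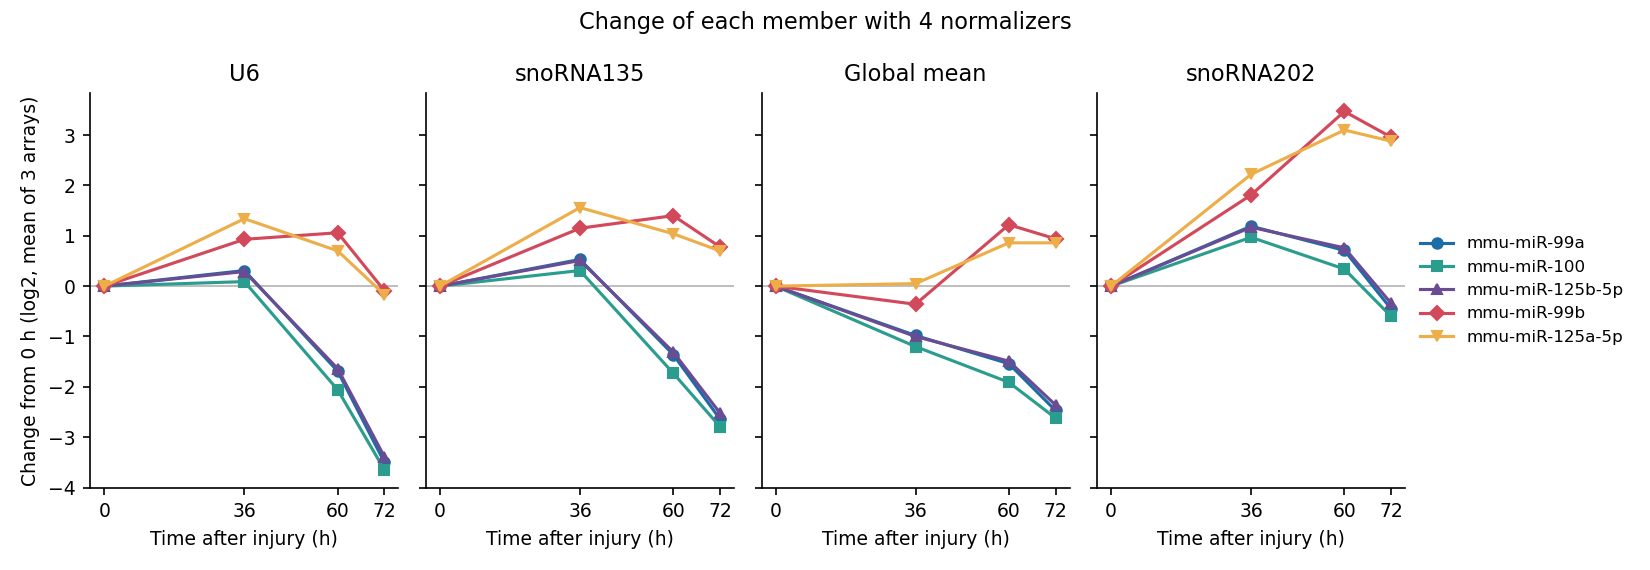
Log2 change from 0 h (vertical axis, mean of 3 arrays) against time after injury in hours (horizontal axis) for the 5 members, in 1 panel per normalizer. All curves of a panel shift together between panels, so the gap between miR-99b and miR-125a-5p above and the other 3 below stays, while the sign of a curve does not: miR-99a at 72 h is at -3.50 with U6 and -0.45 with snoRNA202.

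The gap between members was measured directly as the difference of 2 Ct values on the same array, a log2 ratio in which the normalizer cancels. Each assay has its own efficiency, so only the movement of a ratio over time was read, not which member was more abundant. For each of 7 pairs, an exact two-sided permutation test over the 12 arrays asked whether the 4 times differed, with Benjamini-Hochberg adjustment over the 7 pairs. The smallest p this design allows is 6.5e-05. Of the 4 pairs with a common seed, 3 changed by 9.32-fold to 11.8-fold from 0 to 72 h, those that joined chromosome 17 to another cluster.

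For miR-125a-5p over miR-125b-5p the log2 ratio was -3.29, -3.20 and -3.32 at 0 h, -2.21, -2.21 and -2.26 at 36 h, -1.0, -0.89 and -0.89 at 60 h and -0.07, -0.08 and 0.01 at 72 h. It went up at every step with no overlap of groups. From 0 to 72 h the ratio rose by 3.22 (95% interval 3.12 to 3.32), or 9.32-fold (exact p = 6.5e-05, the smallest possible, adjusted p = 0.00023). Of this, 1.05 came by 36 h, a time at which miR-125b-5p alone was not called.

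For miR-99a over miR-99b the log2 ratio was 2.06, 2.58 and 2.56 at 0 h, 1.76, 2.01 and 1.58 at 36 h, -0.19, -0.48 and -0.38 at 60 h and -1.09, -0.95 and -0.99 at 72 h. The groups did not overlap and went down in order of time. From 0 to 72 h the ratio fell by 3.41 (95% interval -3.79 to -3.03), or 10.6-fold (exact p = 6.5e-05, the smallest possible, adjusted p = 0.00023). miR-99b over miR-100 mirrored it, with means of -2.86 ± 0.13 (SD, n = 3), -2.02 ± 0.20, 0.26 ± 0.10 and 0.70 ± 0.33, an 11.8-fold rise (95% interval of the log2 change 3.17 to 3.95, exact p = 0.00013, adjusted p = 0.0003).

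The remaining seed pair joined chromosomes 16 and 9. The log2 ratio of miR-99a over miR-100 had means of -0.46 ± 0.19, -0.24 ± 0.02, -0.09 ± 0.06 and -0.31 ± 0.29 (SD, n = 3) and did not pass (exact p = 0.16, adjusted p = 0.19). The interval of its change from 0 to 72 h was -0.18 to 0.48, so a shift of that size remains possible. Without 72 h replicate 2 the 4 times differed (spread of the means 0.37, exact p = 0.018, adjusted p = 0.021).

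Pairs of a miR-99/100 and a miR-125 member from the same cluster moved less. miR-99a over miR-125b-5p had means of -2.16 ± 0.16, -2.14 ± 0.03, -2.21 ± 0.10 and -2.27 ± 0.12 (SD, n = 3) at 0, 36, 60 and 72 h while the members fell 11.3-fold and 10.5-fold relative to U6. The means spread over 0.13, less than the largest SD of 0.162 (exact p = 0.56, adjusted p = 0.56), and the interval of the 72 h change was -0.33 to 0.10. miR-100 over miR-125b-5p had means of -1.70, -1.90, -2.12 and -1.96, a spread of 0.42 that passed (exact p = 0.019, adjusted p = 0.027). The interval of its change from 0 to 72 h was -0.49 to -0.03. The call rested on few arrays: it was kept without 0 h replicate 3, 60 h replicate 3, 72 h replicate 2 or 72 h replicate 3, and lost without any of the other 8 arrays. The adjusted p from the exact test was 0.0038 to 0.1 over these 12 refits, and 0.053 when groups were permuted within replicate numbers. miR-99b over miR-125a-5p had means of -1.29, -1.70, -0.93 and -1.21, a spread of 0.77 that passed (exact p = 0.0052, adjusted p = 0.0091). Its lowest point was at 36 h and its highest at 60 h, and its change from 0 to 72 h had an interval of -0.26 to 0.42. The ratios of these 3 pairs thus spread over 0.13 to 0.77, against 3.22 to 3.56 for the seed pairs that involve chromosome 17.

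**Figure D4:**
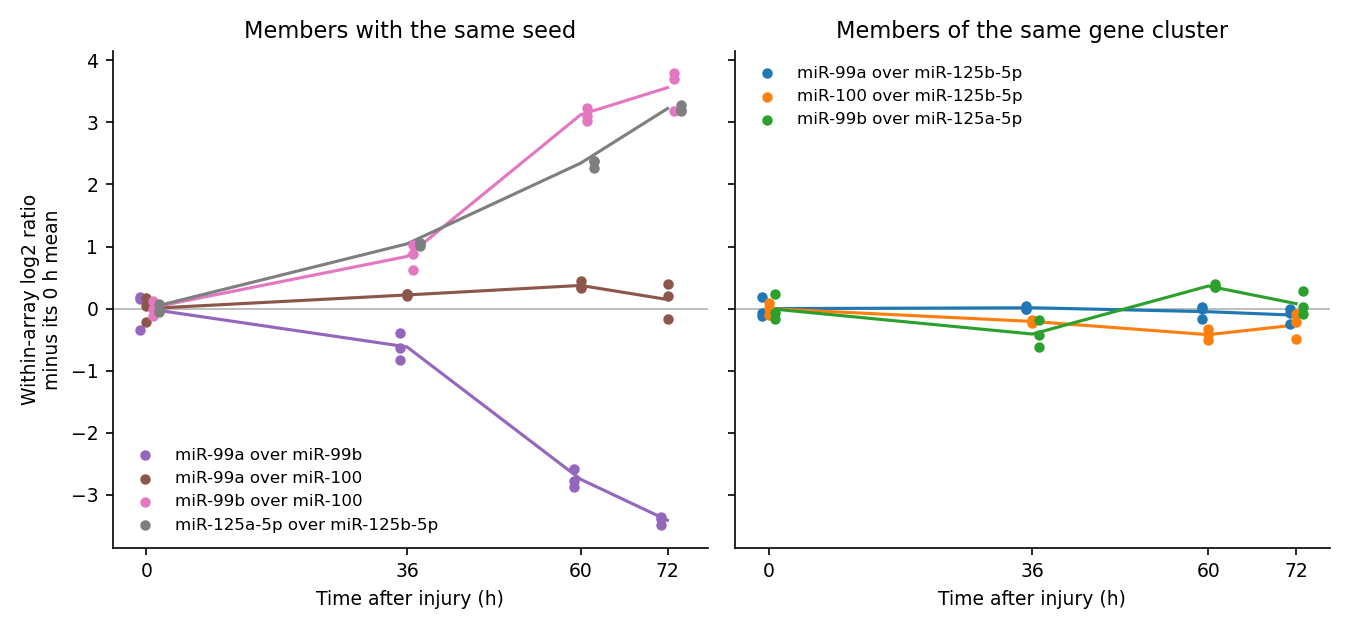
Within-array log2 ratio of 2 members minus its 0 h mean (vertical axis) against time after injury in hours (horizontal axis). The left panel shows pairs with the same seed and the right panel pairs of the same gene cluster, with points for single arrays and lines for group means. Ratios on the left with miR-99b or miR-125a-5p end between 3.22 and 3.56 away from 0, and on the right the means of a ratio spread over at most 0.77.

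The nearness of the members to each other was also set against all other assays. The root mean square difference of the 3 changes against 0 h was taken over the 151 other card A assays detected on every array, a description with no test that no normalizer alters. For miR-99a the nearest assays were miR-337-3p (0.062), miR-125b-5p (0.071) and miR-100 (0.263). For miR-125b-5p they were miR-337-3p (0.061), miR-99a (0.071) and miR-203 (0.259), and for miR-100 they were miR-337-3p (0.254), miR-99a (0.263) and miR-125b-5p (0.309). The 3 thus had each other among their closest 4 assays of 151. For miR-99b the nearest were miR-362-3p (0.128), miR-92a (0.165) and rno-miR-345-3p (0.196), and for miR-125a-5p miR-872 (0.134), miR-362-3p (0.199) and miR-28 (0.208). miR-99b and miR-125a-5p stood 0.32 apart, at place 8 and 9 in each other's order. Seed relatives split between chromosome 17 and another cluster were far down. miR-99b was at place 104 from miR-99a (2.56), and miR-125a-5p at place 98 from miR-125b-5p (2.38).

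let-7 miRNAs, which restrain growth and developmental timing genes, are the third kind of gene in these clusters. The let-7 assays listed as partners were let-7a, let-7c and let-7e. let-7a is listed for the chromosome 9 cluster from background knowledge, and the RefSeq table used here placed it on chromosome 13. The sequences of the other two show that let-7c and let-7e differ by 2 bases outside the seed, U9G and G19A.
let-7c: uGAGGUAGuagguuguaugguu
let-7e: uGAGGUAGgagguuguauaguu
let-7c also has a second gene, Mirlet7c-2 on chromosome 15, so its assay reads more than the chromosome 16 cluster. Of the 2 partners that could be tested, 0 were called at 36 h in limma, where both changes were under 2-fold, 1 was lower at 60 h (36.4% of all assays) and 2 were lower at 72 h (45.9%). let-7c, read from chromosomes 15 and 16 together, fell at each time with no overlap. Its levels were -4.07, -4.17 and -3.91 at 0 h and -4.92, -4.68 and -4.71 at 36 h. They were -6.38, -6.29 and -6.33 at 60 h and -7.33, -7.28 and -7.32 at 72 h. Its log2 change against 0 h was -0.72 ± 0.08, -2.28 ± 0.08 and -3.26 ± 0.08, the last being 9.56-fold (adjusted p = 5.88e-11). With snoRNA202 these were 0.16, 0.12 and -0.21. let-7e of chromosome 17 had levels of -5.62, -5.62 and -5.94 at 0 h, -5.03, -4.87 and -4.89 at 36 h, -5.75, -6.02 and -5.84 at 60 h and -7.12, -7.16 and -7.06 at 72 h. Its changes were 0.80, -0.14 and -1.38, with a call at 72 h alone, where snoRNA202 gave 1.66. let-7a was detected on 1 array at 0 h, 3 at 36 h and none later, and was not tested.

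Within an array, the partner assays did not hold a fixed ratio to the members listed with them. This comparison was added after the data had been seen and has no test. The let-7c assay also reads chromosome 15 and the miR-125b-5p assay chromosome 9. Ratios to let-7c therefore do not describe the chromosome 16 cluster alone. miR-99a over let-7c had means of -2.51 ± 0.26, -1.47 ± 0.11, -1.92 ± 0.15 and -2.75 ± 0.11 (SD, n = 3), and miR-125b-5p over let-7c -0.35 ± 0.11, 0.67 ± 0.12, 0.29 ± 0.05 and -0.48 ± 0.01. Both ratios peaked at 36 h, about 1 log2 unit above 0 h, and ended near their start. On chromosome 17, miR-99b over let-7e went from -3.23 ± 0.10 at 0 h to -1.93 ± 0.14 at 72 h and miR-125a-5p over let-7e from -1.94 ± 0.17 to -0.72 ± 0.04, changes of 1.30 and 1.21. Of the 4 other let-7 family assays that could be tested, let-7b had changes of -0.79, -2.27 and -3.20, close to those of let-7c. let-7b is not listed as a partner in these clusters. Whether its gene lies near Mirlet7c-2, which the let-7c assay also reads, was not analysed. Whether the let-7b and let-7c assays amplify each other's product was not tested. let-7i had changes of 4.25, 3.22 and 1.88, each called higher. At 72 h, 3 of the 4 were lower (45.9% of all assays) and let-7i was higher. With snoRNA202 at 72 h, let-7d was at 1.21 and let-7g at 1.75, both called higher, and let-7b at -0.16, not called. Neither let-7d nor let-7g was called at 72 h with snoRNA135 or the global mean.

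The passenger strands are the arms of the same hairpins that are mostly discarded. They had Ct values of 25.28 to 33.32 in group mean where detected and did not all follow the guide strands. The 8 passenger assays tested in limma include let-7c-1*, let-7a* and both the mouse and rat miR-125b* assays, so they need not be 8 separate hairpins. let-7a*, called lower at 72 h (-1.95), belongs to let-7a, which the RefSeq table used here placed on chromosome 13. Of the 8, 6 were higher and 0 lower at 36 h, where miR-125a-3p alone had a change below 0 (adjusted p = 0.172). The counts were 2 higher and 3 lower at 60 h, and 1 higher and 4 lower at 72 h. Over all assays 44.1% were higher and 12.1% lower at 36 h, 28.0% and 36.4% at 60 h, and 20.9% and 45.9% at 72 h, so the passenger counts at 60 and 72 h are near the background. miR-99b* had levels of -14.43, -15.02 and -14.30 at 0 h, -12.24, -12.30 and -12.15 at 36 h, -11.89, -11.93 and -11.91 at 60 h and -12.06, -12.46 and -12.41 at 72 h. All later arrays lay above all 0 h arrays. It rose 5.12-fold, 6.37-fold and 4.84-fold (log2 2.36, 2.67 and 2.27, each ± 0.19, with adjusted p of 6.51e-07, 1.28e-07 and 4.94e-07), calls made with all 4 normalizers, while the guide miR-99b had 0.93, 1.06 and -0.09. These 2 assays are on different cards, so their ratio was not formed. miR-125a-3p had changes of -0.29 (not called), -1.0 and -1.60 (3.04-fold lower at 72 h, adjusted p = 1.44e-05), where its guide miR-125a-5p had 1.34, 0.70 and -0.17. With snoRNA202 both strands were above 0 at each time, miR-125a-3p at 0.59, 1.40 and 1.44 and miR-125a-5p at 2.22, 3.10 and 2.88. At 60 and 72 h miR-125a-3p was at -0.66 and -0.74 with snoRNA135 and -0.84 and -0.57 with the global mean, none called. With U6, its 60 h call was lost without 0 h replicate 2 or 3 or 60 h replicate 1.

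For miR-125b, the mouse and rat star assays resembled the guide in their later fall. miR-125b* changed by 1.33, -1.49 and -2.68 and rno-miR-125b* by 1.16, -1.19 and -2.03 against 0 h. The 36 h call of miR-125b* was lost without 0 h replicate 1 (0.98), and with snoRNA202 the 60 h values were 1.06 and 1.35. miR-125b-3p, whose assay name does not tell which of the 2 hairpins it reads, had levels of -16.16, -17.02 and -17.06 at 0 h and -14.13, -14.23 and -14.29 at 36 h. It rose 5.77-fold at 36 h and 2.90-fold at 60 h, with 0.87 ± 0.36, not called, at 72 h. The 72 h change was called with each other normalizer (snoRNA135 gave 1.73, snoRNA202 3.92 and the global mean 1.90), and with U6 without 0 h replicate 1 (1.16) or 72 h replicate 2 (1.27). rno-miR-99a* rose 3.85-fold at 36 h (log2 1.95 ± 0.51, adjusted p = 0.00544), from 2 detected arrays at 0 h, and had -0.19 and -0.61 later.

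**Figure D5:**
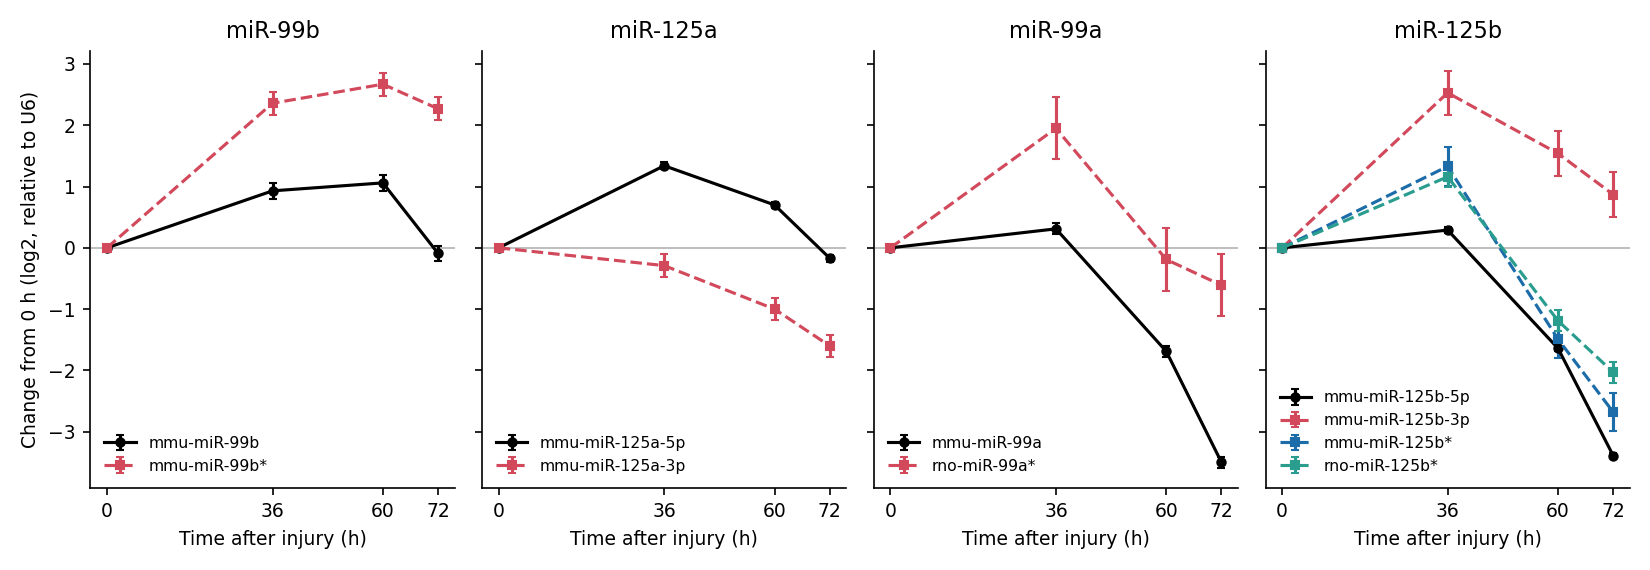
Log2 change from 0 h relative to U6 (vertical axis, mean of 3 arrays, 2 at 0 h for rno-miR-99a*, bars are SE) against time after injury in hours (horizontal axis). Solid black lines are guide strands and dashed lines other arms of the same hairpins. miR-99b* stays between 2.27 and 2.67 while miR-99b returns to -0.09, and miR-125a-3p goes down to -1.60 while miR-125a-5p ends at -0.17.

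Markers of other cell types moved over the same times, and their part in the members' changes was not tested. The summed log2 level of the 2 endothelial assays (miR-126-3p and miR-126-5p) was -4.52 to -4.44 at 0 h, -2.29 to -2.28 at 36 h, -6.28 to -6.19 at 60 h and -6.42 to -6.40 at 72 h. That of the 4 stromal and smooth muscle assays was -3.23 to -3.11, -2.76 to -2.70, -6.16 to -6.13 and -6.82 to -6.75. Both sums were highest at 36 h and low at 60 and 72 h, when miR-99a, miR-100 and miR-125b-5p were low. Against 0 h, 3 of 4 stromal assays were called higher at 36 h (44.1% of all assays) and 3 lower at 60 h (36.4%). The exceptions were miR-145 at 36 h (-0.33) and miR-199a-3p at 60 h (0.19). The leukocyte sum, with 5 to 6 of 6 assays detected, was -5.38 to -5.34, -3.72 to -3.65, -6.57 to -6.44 and -7.42 to -7.28. Its members did not move as one: of 5 tested, 3 were higher and 1 lower at 60 h and 2 higher and 1 lower at 72 h against 0 h. At 72 h miR-142-3p was at 5.61 and miR-223 at 3.81, and miR-150 at -4.21. Erythroid miR-451 was detected in 3 of 3 arrays at 36 and 60 h and not in all 3 at 0 or 72 h, and the epithelial assays detected in 3 of 3 arrays numbered 1, 3, 1 and 1 of 6. Of the labelled cell type, miR-489, known from quiescent muscle stem cells, went from -9.19 to -8.93 at 0 h down to -15.91 to -15.58 at 72 h. The sum of 3 muscle assays on card A went up from -9.99 to -9.82 at 0 h to -5.90 to -5.71 at 72 h. Within that sum, miR-1 was highest at 36 h, at -12.4 against -12.9 at 72 h, and miR-133a and miR-133b were highest at 72 h.

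Fold changes in the authors' deposited table, headed day 1.5 and day 2.5 against day 0, were 1.24 and 0.311 for miR-99a, 1.07 and 0.24 for miR-100 and 1.23 and 0.32 for miR-125b-5p. For miR-99b the authors' deposited table gave 1.93 and 2.12, and for miR-125a-5p 2.53 and 1.62. Both sets of values rest on the same Ct values, and both place miR-99b and miR-125a-5p above 1 and the other members below 1 at day 2.5.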

How the data were processed

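Total RNA of muscle stem cells was extracted with Trizol and run on TaqMan rodent miRNA cards for 40 cycles, per the labels' protocols. The authors deposited 1 table of threshold cycles per array, on an inverse log2 scale, and tables for the whole series whose fold changes are linear ratios against day 0, per the file headers. Which program and threshold gave them: not given in the sources used here. In the whole-series tables the last time is headed day 3.5, in the labels 72 h, so the time was taken from the labels and 84 per-sample columns of those tables were not used. Card type was read from the assay names of each array.

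Levels were the mean U6 Ct of the array minus the assay's Ct, with spots at Ct 35 or above left out. limma 3.58.1 in R 4.3.3 was fitted per card over 12 arrays, for assays with at least 2 detected arrays per group, with Benjamini-Hochberg adjustment over both cards. A call needed an adjusted p below 0.05 and at least 2-fold. The code was tested on simulated data. Intervals of pair ratios are 95% intervals with the spread pooled over the 4 groups (8 residual degrees of freedom). Whether replicate numbers pair arrays across groups could not be settled. Over 18 same-number pairs on card A the mean correlation of deviations was 0.039 (-0.267 to 0.36). On card B it was -0.02 (-0.428 to 0.491). Members and lists were chosen with earlier results of these data known. The members, their let-7 partners, passenger strands and the 3 nearest assays of each member are named. Normalizer, detection limit, undetected values, minimum fold, replicate block and each array were varied in turn.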

Additional observations from a re-analysis of the deposited data

How the results depend on the processing

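The changes of single members depended on the normalizer, and the pair ratios cannot, since it cancels in them. Detection limits of Ct 32 and Ct 40 and undetected values at Ct 35 changed no count of members called. The members had Ct 18.96 to 25.36 on every array, so these settings could not alter their log2 changes and do not test them. With snoRNA202, 4 members were called higher and 0 lower at 36 h against 0 h (180 and 6 over all assays). The counts were 2 and 0 at 60 h (179 and 20) and 2 and 0 at 72 h (166 and 24). From 36 to 60 h they were 1 and 0 (94 and 54 over all assays). From 60 to 72 h they were 0 and 2 (9 and 37), and from 36 to 72 h 1 and 3 (70 and 69). With snoRNA135, 2 members were higher at 36 h (139 over all assays), 2 higher at 60 h (82) and 3 lower from 36 to 72 h (161). With the global mean, 0 members were higher and 1 lower at 36 h (59 and 89 over all assays). From 36 to 60 h, 1 was higher and 0 lower (75 and 64). From 60 to 72 h, 0 were lower (17), and from 36 to 72 h 1 was higher and 3 lower (76 and 68). Without a minimum fold, 4 were higher at 36 h and 2 at 60 h. The shares over all assays in that setting are not given here, so these counts cannot be set against a background. Calls over all assays from 60 to 72 h numbered 97, against 46 with snoRNA202, 59 with snoRNA135, 42 with the global mean and 200 without a minimum fold. At 72 h against 0 h, the split of higher and lower calls over all assays was 51 and 112 with U6. snoRNA135 gave 65 and 85, snoRNA202 gave 166 and 24, and the global mean gave 72 and 79.

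Among the members, let-7c, let-7e and the passenger assays, log2 changes that took the opposite sign were these. The other let-7 family assays are not in this list. With snoRNA202 against 0 h at 36 h, let-7c was at 0.16 and miR-125a-3p at 0.59. At 60 h, miR-99a was at 0.71, miR-100 at 0.34, miR-125b-5p at 0.76, let-7c at 0.12, let-7e at 2.26, miR-125a-3p at 1.40, miR-125b* at 1.06, rno-miR-125b* at 1.35, rno-miR-99a* at 2.31 and let-7a* at 1.78. At 72 h, miR-99b was at 2.96, miR-125a-5p at 2.88, let-7e at 1.66, miR-125a-3p at 1.44, rno-miR-125b* at 0.58, rno-miR-99a* at 1.96, let-7a* at 0.66 and let-7c-1* at 2.25. From 36 to 60 h, miR-125a-5p was at 0.89, let-7e at 0.58, miR-125a-3p at 0.82, miR-125b-3p at 0.53, let-7a* at 0.62 and let-7c-1* at 0.52. From 36 to 72 h, miR-99b was at 1.15, miR-125a-5p at 0.66, miR-125a-3p at 0.86, miR-125b-3p at 0.51 and miR-99b* at 1.42, and from 60 to 72 h miR-125a-3p was at 0.04. With snoRNA135 against 0 h, let-7e was at 0.19 and rno-miR-99a* at 0.21 at 60 h, and miR-99b at 0.78 and miR-125a-5p at 0.70 at 72 h. With the global mean at 36 h, miR-99a was at -0.98, miR-99b at -0.36, miR-100 at -1.20, miR-125b-5p at -1.0, let-7e at -0.49 and let-7a* at -0.72. At 60 h let-7e was at 0.01, and at 72 h miR-99b was at 0.94, miR-125a-5p at 0.86 and let-7c-1* at 0.00. From 36 to 60 h, miR-125a-5p was at 0.81, let-7e at 0.50, miR-125a-3p at 0.74 and miR-125b-3p at 0.45. From 60 to 72 h, miR-125a-5p was at 0.01, miR-125a-3p at 0.27, miR-125b-3p at 0.21, rno-miR-99a* at 0.01 and miR-99b* at 0.03. From 36 to 72 h, miR-99b was at 1.30, miR-125a-5p at 0.81, let-7e at 0.14, miR-125a-3p at 1.01, miR-125b-3p at 0.66 and miR-99b* at 1.06. With undetected values at Ct 35, rno-miR-99a* was at 0.74 at 60 h and 0.32 at 72 h. The normalizers differ from U6 by construction, since their own ratio to it moved. The cause of that movement was not tested.

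Leaving out each array in turn gave 1 to 2 members higher at 36 h, 0 to 1 higher at 60 h and 4 to 5 lower from 36 to 72 h. Over all assays, calls in either direction in these 3 comparisons numbered 143 to 154, 150 to 162 and 188 to 199. The change of miR-99b at 72 h against 0 h ranged from -0.19 to 0.01, that of let-7a* at 36 h from -0.02 to 0.13, and that of rno-miR-99a* from -0.56 to 0.23 at 60 h and from -0.84 to 0.05 between 60 and 72 h. The spread of the pair means for miR-100 over miR-125b-5p was 0.37 to 0.47, with the call lost in 8 of 12 refits, and that for miR-99a over miR-100 was 0.27 to 0.45, with 1 refit that passed. With a replicate block, 1 member was called higher at 36 h and 3 lower at 60 and at 72 h against 0 h. The block changed no call of a member. Without it, 44.1% of all assays were higher at 36 h and 36.4% and 45.9% lower at 60 and 72 h. Permutation within replicate numbers ended the call of miR-100 over miR-125b-5p (spread 0.42, exact p = 0.038, adjusted p = 0.053) and no other pair call. For both miR-99a over miR-99b and miR-125a-5p over miR-125b-5p it gave exact p = 0.0017, adjusted p = 0.0061. Of 18 same-number pairs of arrays on card A, 5 had a correlation over 0.1 (-0.267 to 0.36).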
